A study of Mus musculus with 7 samples.

Results

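The comparison was of reporter activity with the promoter labelled pR-Ea against activity with SCP1, across 36804 genomic bins of 500 bp in mouse build mm9. A bin entered when its plasmid input count was at least 50 reads in both promoters' files. Of the 115541 bins that reached this minimum in at least 1 file of the series, 100175 did so with SCP1 and 39281 with pR-Ea. The cells were P5424, a mouse line of immature T cells grown in RPMI medium with serum, and they carried a plasmid library of captured DNase hypersensitive sites (CapStarr-seq). The groups used were the SCP1 reporter, the SCP1 input, the pR-Ea reporter and the pR-Ea input, with 1 library each. The labels' treatment field names PMA and ionomycin for all 7 samples of the series, but only the title of a separate pPGK library, PMA_I, does so. The pPGK reporter without that mark, its input and the PMA_I library were used only as outside readouts. With 1 library per group no difference was tested against replicates, and every difference is between these libraries.

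In this assay each genomic fragment sits inside the transcript it regulates, so its share of reporter RNA over its share of the plasmid input measures its output relative to other fragments. Enhancers raise and silencers lower transcription from a promoter, and their effect can depend on the core promoter. SCP1 (super core promoter 1) is a synthetic minimal promoter that combines several core motifs and responds well to enhancers. A promoter with low basal output leaves room to see activation, and one with high basal output leaves room to see repression. The labels do not expand the name pR-Ea. The comparison takes it as the stronger promoter, but shares scaled to a library's total do not measure promoter strength, so that was not tested.

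Activity is the log2 of the reporter share over the input share. A bin was called high (enhancer-like) or low when its activity was at least 1 in size, which is 2-fold, and its 95% interval over 5′ end positions excluded 0. A bin was called lower or higher with pR-Ea by the same rule applied to the difference between the log2 activities. The standard error (SE) over positions measures how far reporter and input reads differed in their distribution over the positions within a bin. It does not cover variation between cultures, and it is too small if both ends of 1 plasmid were counted. Depth was 54992717 reporter reads over 45278192 input reads with SCP1, and 51450446 over 18940646 with pR-Ea. The median bin had 405 SCP1 input reads at 63 positions and 153 pR-Ea input reads at 46 positions. Bins with 50 to 54 input reads in the shallower file numbered 2024 and had a median difference of 0.11, against 0.10 for the 2298 excluded bins with 45 to 49.

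Activity spanned a narrower range with pR-Ea than with SCP1. Its SD across bins was 0.66 with pR-Ea and 0.90 with SCP1. The middle 98% of bins lay between -2.36 and 0.998 with pR-Ea and between -3.17 and 1.54 with SCP1, and the highest bins reached 2.62 and 4.04. The median SE over positions was also smaller with pR-Ea, at 0.18 against 0.28 with SCP1, and the part of this error in the wider SCP1 range was not tested. The median activity was -0.02 with pR-Ea and -0.09 with SCP1, and the median difference was 0.08. In the 2071 bins with at least 1000 input reads in both files the SDs were 0.75 and 0.94.

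**Figure D1:**
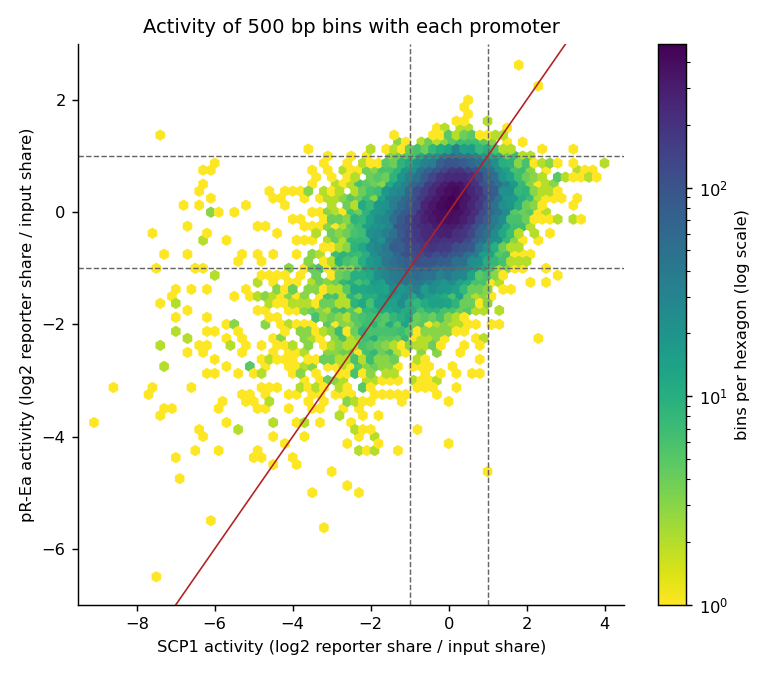
Activity of the 36804 bins with SCP1 (x axis, log2) against pR-Ea (y axis, log2), with color for the number of bins per hexagon on a log scale; dashed lines mark an activity of 1 in size and the red line marks equal activity. Few bins lie right of the right dashed line and above the upper one, where 48 bins were called high with both promoters.

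Few bins were called high with both promoters by this rule. With pR-Ea the fixed 2-fold line lies near the top of the narrower range given above. SCP1 gave 1689 high bins (4.59% of all bins) and pR-Ea gave 367 (0.997%). Of the 1689, 48 were also high with pR-Ea (2.84% of the SCP1 list and 13.1% of the pR-Ea list), and 1641 were not (97.2%). Losing the label did not always mean a large difference: 929 of the 1641 lost bins were called lower with pR-Ea, and 712 were not. Their median activity was 1.24 with SCP1 (quartiles 1.11 and 1.49) and 0.24 with pR-Ea (quartiles -0.10 and 0.52). With pR-Ea 1121 of the 1641 (68.3%) had an activity above 0, compared with 48.5% of all bins. These values chose the bins, so they describe the group and test nothing.

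The 929 bins that were lost and called lower had a median activity of 1.36 with SCP1 and -0.04 with pR-Ea, which is percentile 48.6 of pR-Ea activity. Their pR-Ea quartiles were -0.32 and 0.21, within a range from -2.29 to 0.93. The call of a lower activity itself favors low pR-Ea values here, and its absence favors higher ones in the rest. The 712 other lost bins kept a median of 0.50 with pR-Ea, at percentile 85.2. From high to low passed 25 bins, 1.52% of the 1641 lost bins, where 8.2% of all bins were low with pR-Ea. In the 929 bins the share of reporter reads was lower by a median of -1.43 on the log2 scale, while the share of input reads differed by 0.13. These are medians of signed differences in bins chosen on the same values, and single bins differed: the input share of the lost bins named below differed by -1.10 to 1.31. Across all 36804 bins Spearman's rho between the ratio of reporter shares and the ratio of input shares was 0.75.

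Because pR-Ea values spread less, lists were also compared at equal size, an alternative chosen after the data were seen. The 1689 bins with most activity in each library shared 186 bins, 11% of either list, where each list holds 4.59% of all bins. The last of the pR-Ea list had an activity of 0.76. Stretching pR-Ea activity to the SD of SCP1 gave 1972 high bins with pR-Ea, of which 205 were among the 1689 of SCP1, so 1484 were lost at that cut-off. Most of the SCP1-high bins were thus outside the top of the pR-Ea order at each of these cut-offs.

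The largest losses at well covered sites, with at least 200 input reads in each library, reached about an order of magnitude. The first was chromosome 14, 54847001 to 54847500. It held 6398 reporter and 930 input reads with SCP1, an activity of 2.50 (SE 0.17), and 295 and 229 with pR-Ea, an activity of -1.08 (SE 0.20). It was 11.9-fold lower (log2 difference -3.58, SE 0.26) and passed from high to low. With pPGK, whose reads were not used to choose it, the activity was 0.72 (SE 0.36), between the values of the other promoters.

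A second bin that crossed from high to low was chromosome 13, 23853001 to 23853500. It held 7966 reporter and 1599 input reads with SCP1 and 768 and 679 with pR-Ea. Its activity was 2.04 (SE 0.12) and -1.26 (SE 0.13), a difference of -3.30 (SE 0.18). The input shares were nearly equal, with a log2 difference of 0.02. Its pPGK activity was 0.06 (SE 0.20), near the average of the library.

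The 2 named bins with most SCP1 activity lost height but stayed near the top of the pR-Ea order. Chromosome 17, 72814501 to 72815000, held 43930 reporter and 2203 input reads with SCP1, the highest activity of the 36804 bins at 4.04 (SE 0.11). With pR-Ea it held 6373 and 1272, an activity of 0.88 (SE 0.06) at percentile 97.7. Chromosome 8, 90578501 to 90579000, had an activity of 3.97 (SE 0.07) from 53668 and 2820 reads with SCP1, and 0.93 (SE 0.06) from 5962 and 1154 reads with pR-Ea, at percentile 98.3. Their differences were -3.15 (SE 0.13) and -3.04 (SE 0.09). With pPGK they were high, at 1.71 (SE 0.11) and 2.34 (SE 0.11). Both missed the 2-fold line with pR-Ea narrowly, so the word lost describes the threshold there and not the order of sites. By distinct positions in place of reads their differences were -0.73 and -0.54, without a call.

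Chromosome 19, 43786001 to 43786500, had an SCP1 activity of 3.29 (SE 0.45) that became 0.23 (SE 0.20) with pR-Ea, with pPGK between them at 1.99 (SE 0.26). Of its difference of -3.06 (SE 0.49), the reporter share gave -1.74 and the input share, 1.31 higher with pR-Ea, gave the rest. It was at percentile 68.1 with pR-Ea. Chromosome 15, 31047001 to 31047500, went from 2.11 (SE 0.16) to -0.80 (SE 0.23). Chromosome 14, 73516501 to 73517000, went from 2.54 (SE 0.25) to -0.35 (SE 0.15). These 2 bins had pPGK activities of 0.60 and 0.41. Chromosome 1, 130487501 to 130488000, lay in a stretch of 5 adjacent bins with enough input and went from 2.80 (SE 0.10; 33943 and 4019 reads) to -0.09 (SE 0.08; 1998 and 784 reads), at percentile 45.1. Of the lost bins called lower, the one with most SCP1 input reads was chromosome 8, 125305501 to 125306000, with 12794. It moved from 1.61 (SE 0.07) to 0.51 (SE 0.04), a difference of -1.10 (SE 0.08), or -0.36 by distinct positions, without a call.

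**Figure D2:**
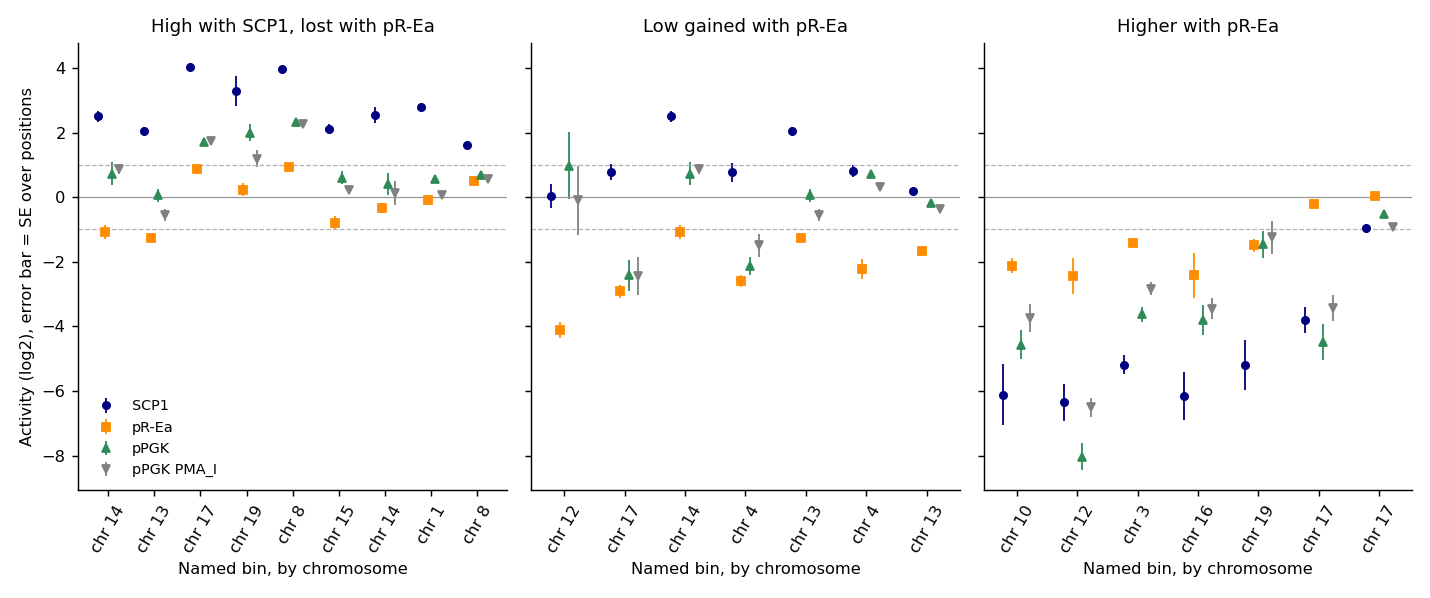
Activity (y axis, log2) of the named bins (x axis, by chromosome) in 4 reporter libraries, with error bars of 1 SE over positions and dashed lines at an activity of 1 in size. In the left panel every SCP1 point lies above its pR-Ea point, with differences from -3.58 to -1.10. The same holds in the middle panel, with differences from -4.16 to -1.84. In the right panel every pR-Ea point lies above its SCP1 point.

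Bins high with both promoters were few and mostly thinly covered. The 48 had a median of 79.5 pR-Ea input reads, against 153 over all bins, and 10 of them had at least 200 input reads in each library. Chromosome 7, 149853501 to 149854000, had the most reads: 80147 reporter and 6821 input with SCP1, 13276 and 2207 with pR-Ea. Its activity was 3.27 (SE 0.09) and 1.15 (SE 0.04), and it was called lower with pR-Ea at -2.13 (SE 0.10), but not by distinct positions (-0.57). Chromosome 17, 85988501 to 85989000, was also called lower, from 2.34 (SE 0.27) to 1.16 (SE 0.12). There the reporter share was higher with pR-Ea, by 0.34, and the input share higher by 1.51, and by distinct positions the difference was -0.38, without a call. Chromosome 3, 65761501 to 65762000, had 1.10 (SE 0.18) and 1.16 (SE 0.13), a difference of 0.05 with a 95% interval over positions from -0.38 to 0.49. Chromosome 6, 71444001 to 71444500, went from 1.12 (SE 0.22) to 1.04 (SE 0.13), with an interval of the difference from -0.57 to 0.42. For these bins a change within those intervals could not be resolved. Chromosome 12, 82961001 to 82961500, went from 1.92 (SE 0.15) to 1.02 (SE 0.13). Chromosome 16, 8830501 to 8831000, went from 1.63 (SE 0.31) to 1.04 (SE 0.11). With pPGK these 6 bins ranged from 0.30 to 2.36.

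Low bins formed longer lists than high ones. SCP1 gave 4552 low bins (12.4%) and pR-Ea 3019 (8.2%), and 1536 were low with both, 33.7% of the SCP1 list and 50.9% of the pR-Ea list. In lists of equal size, the lowest 4552 bins of each library shared 2024 (44.5%), where each list holds 12.4% of all bins. The top lists above are shorter, so the overlaps at the 2 ends cannot be set against each other directly. The low bins common to both promoters had medians of -1.81 with SCP1 and -1.55 with pR-Ea.

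Low bins gained with pR-Ea numbered 1483, 49.1% of its low list. In 100 of these the SCP1 reporter had reads at fewer than 3 positions, so no SCP1 call could be made. In 99 of those 100 the SCP1 activity was itself at or below -1, and they are not gains in any sense but that of the rule. In the other 1383 the median activity was -0.39 with SCP1. Of these, 60 were also at or below -1 with SCP1, but with an interval that included 0. The SCP1 activity was above -1 in 1324 of the 1483. Of all 1483, 599 were called lower with pR-Ea. Those 599 had medians of 0.11 with SCP1 and -1.37 with pR-Ea, at percentile 4.21. Their reporter share was lower by a median of -1.49 and their input share higher by 0.14. As above, these medians do not give the parts in single bins, and in leading bins below the input share made up a large part of the difference.

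Differences of the 599 gained low bins called lower reached -5.70. Of those with at least 200 input reads in each library, the one with the largest difference was chromosome 12, 32291001 to 32291500. It held 491 reporter and 391 input reads with SCP1, an activity of 0.05 (SE 0.37), and 70 and 451 with pR-Ea, an activity of -4.11 (SE 0.25). It was 17.9-fold lower with pR-Ea (-4.16, SE 0.45). The reporter share was lower by -2.70 and the input share higher by 1.46. Its pPGK activity of 0.97 had an SE of 1.04, so pPGK did not resolve its side.

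In a pair of other bins pPGK was low as well. Chromosome 17, 25515501 to 25516000, had 0.78 (SE 0.25) with SCP1, from 1697 and 814 reads, and -2.91 (SE 0.20) with pR-Ea, from 418 and 1160 reads. With pPGK it was at -2.42 (SE 0.49). Chromosome 4, 155153501 to 155154000, had an SCP1 activity of 0.77 (SE 0.29), against -2.59 (SE 0.19) for pR-Ea and -2.13 (SE 0.28) for pPGK. Its neighbor, chromosome 4, 155153001 to 155153500, went from 2.24 (SE 0.30) to -2.29 (SE 0.43). This neighbor had 91 pR-Ea input reads and was named after its values were seen. Its pPGK activity of 0.93 had an SE of 1.31, so pPGK did not resolve its side. In the bins on chromosome 17 and at 155153501 the input share was higher with pR-Ea, by 1.77 and 2.11. By distinct positions in place of reads their differences were -0.64 and -0.20, without a call.

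In chromosome 4, 129374001 to 129374500, the activity went from 0.81 (SE 0.18; 2999 and 1403 reads) to -2.22 (SE 0.31; 175 and 300 reads), while pPGK was at 0.71 (SE 0.14). The gained low bin with most SCP1 input reads was chromosome 13, 105398501 to 105399000. It was at 0.18 (SE 0.06) from 10739 and 7828 reads with SCP1, -1.66 (SE 0.08) from 3349 and 3906 reads with pR-Ea, and -0.20 (SE 0.08) with pPGK. Its difference was -1.84 (SE 0.10), or -0.97 by distinct positions, just short of a call. The bins on chromosomes 14 and 13 that passed from high to low, given above, were also among the leading gains.

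Movement the other way was also common. In all, 2547 bins were called lower with pR-Ea (6.92%) and 3074 higher (8.35%). This order depended on the scaling: with each library's median activity set to 0 there were 2990 lower and 2557 higher, and with TMM scaling 2872 and 2686. With the 2-fold line alone and no interval, 2782 bins (7.56%) were lower and 3670 (9.97%) higher, SCP1 had 1746 high bins (4.74%) and pR-Ea had 3049 low bins (8.28%). Of the 2547 lower bins, 929 were lost high bins (36.5%), 599 were gained low bins (23.5%) and 995 (39.1%) were neither high nor low with either promoter. Over all bins these classes made up 4.46%, 4.03% and 78.3%. The first 2 groups share the 25 bins that passed from high to low. Of the 3074 higher bins, 1582 (51.5%) were low with SCP1 and no longer low with pR-Ea, and 137 (4.46%) were newly high. Over all bins those classes made up 8.19% and 0.867%. The same activities set the classes and the calls, so such overlaps are partly built in.

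The 6 leading increases, among sites with at least 200 input reads in each library, were in sites with little SCP1 output. Choosing the largest differences favors such sites, since only 0.997% of all bins were high with pR-Ea. Chromosome 3, 98238001 to 98238500, held 49 reporter and 1497 input reads with SCP1, an activity of -5.19 (SE 0.28), and 1290 and 1282 with pR-Ea, an activity of -1.43 (SE 0.10). It was 13.5-fold higher with pR-Ea (3.75, SE 0.30) and low with both. Chromosome 17, 56381501 to 56382000, went from -3.81 (SE 0.40; 109 and 1271 reads) to -0.20 (SE 0.12; 662 and 280 reads). It was no longer low with pR-Ea and stayed at -4.48 (SE 0.56) with pPGK. Among the 6 leading increases it was the one that left the low class.

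The other 4 leading increases rested on few SCP1 reads. Chromosome 10, 127153501 to 127154000, had 7 SCP1 reporter reads and a difference of 3.99 (SE 0.98). Chromosome 16, 5166001 to 5166500, had 4 and a difference of 3.74 (SE 1.01), and chromosome 19, 30288501 to 30289000, had 11 and 3.70 (SE 0.79). Chromosome 12, 4152501 to 4153000, had 12 SCP1 reporter reads and a difference of 3.91 (SE 0.80), but -0.19 when positions listed on both strands were placed at the midpoint of the plus strand fragment, and 0.38 when they were counted on each listed line. Its pPGK activity was -8.03 (SE 0.41). The higher bin with most input was chromosome 17, 39983001 to 39983500, with 94855 SCP1 input reads in a stretch of 12 adjacent bins. It went from -0.96 (SE 0.05) to 0.05 (SE 0.02), a difference of 1.01 (SE 0.05) that fell under the threshold with the median set to 0 (0.94) and with TMM (0.96).

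Sites newly high with pR-Ea numbered 319, 86.9% of its high list, and 137 of them were called higher. The 137 had medians of -0.30 with SCP1 and 1.13 with pR-Ea. These bins combined a higher reporter share (median 1.05) with a lower input share (-0.51), and their median pR-Ea input was 89 reads. In the high bins lost and called lower those medians were -1.43 and 0.13, also opposite in sign. In both groups the same values chose the bins. Chromosome 7, 53652001 to 53652500, named after its values were seen, was the deepest of the 20 bins that passed from low to high: 701 SCP1 reporter reads gave -1.94 (SE 0.25), and 4438 pR-Ea reporter reads gave 1.11 (SE 0.08). Its input share was lower by -0.29, and with pPGK it was low at -2.26 (SE 0.33).

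Some well covered bins were far below input with both promoters. Chromosome 6, 64919001 to 64919500, had an activity of -4.90 (SE 0.82) for SCP1 and -4.31 (SE 0.45) for pR-Ea. Chromosome 12, 56696501 to 56697000, had -4.98 (SE 0.43) for SCP1 and -4.31 (SE 0.16) for pR-Ea. Chromosome 1, 64989501 to 64990000, had -4.21 (SE 0.95) for SCP1, from 17 reporter reads at 4 positions, and -4.17 (SE 0.56) for pR-Ea. Their pPGK activities were -4.47, -5.64 and -6.77, the last from 5 reporter reads and with no SE. The bin low with both that had most SCP1 input was chromosome 1, 43193501 to 43194000, with 16266 SCP1 and 3864 pR-Ea input reads. Its reporter share was 13.6-fold below its input share with SCP1 and 7.98-fold below it with pR-Ea, a difference of 0.76 (SE 0.14) in log2 activity, and its pPGK activity was -3.71 (SE 0.08).

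**Figure D3:**
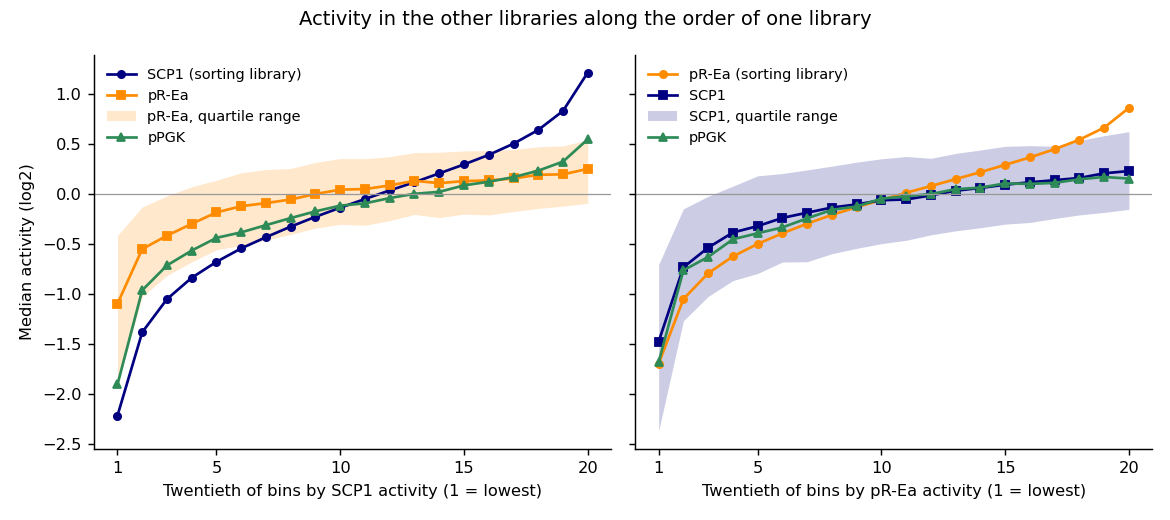
Median activity (y axis, log2) in 20 equal groups of bins (x axis) sorted by SCP1 activity (left) or by pR-Ea activity (right), with the quartile range of the other library shaded and pPGK as triangles. In the left panel the highest group has a median of 1.22 with SCP1, 0.25 with pR-Ea and 0.55 with pPGK, and in the right panel the highest group has 0.86 with pR-Ea, 0.23 with SCP1 and 0.16 with pPGK.

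Along the order of SCP1 activity the pR-Ea medians mostly rose, and they changed little between the highest groups. Of 20 equal groups sorted by SCP1 activity, the lowest had a median of -2.22 with SCP1 and -1.10 with pR-Ea. The highest had 1.22 with SCP1 and 0.25 with pR-Ea, close to the 0.20 of the group below it. With SCP1 the lowest group was more extreme than the highest, so agreement at the ends cannot be compared directly. Across all bins, which share depth and are not independent replicates, Spearman's rho was 0.39, and it was 0.73 in the 2071 bins with at least 1000 input reads in both files.

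A split of each bin's positions by even and odd coordinate showed how far the values repeated within a library. In the 31408 bins with at least 25 input reads on each side in both libraries, rho between even and odd positions was 0.67 within SCP1, 0.78 within pR-Ea and 0.56 for the difference. Between promoters, on opposite positions, it was 0.37 both ways. With at least 500 input reads on each side (1857 bins) the values were 0.95, 0.98 and 0.86, and 0.73 and 0.72 between promoters. These are correlations across bins. Both ends of 1 plasmid can fall on opposite sides, so the sides are not independent.

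**Figure D4:**
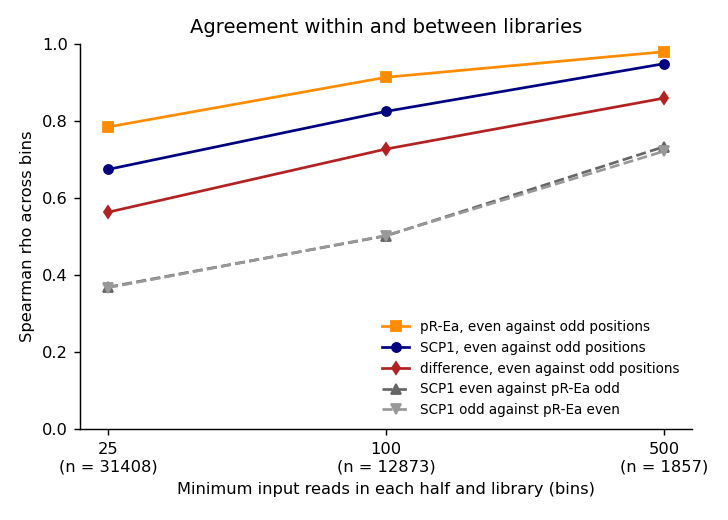
Spearman's rho across bins (y axis) between even and odd positions within a library, for the difference, and between SCP1 and pR-Ea on opposite positions, at 3 minimums of input reads (x axis, with the number of bins). The between-promoter points lie below the within-library points at each minimum, at 0.37 against 0.67 and 0.78 at the lowest.

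Bins chosen on even positions and measured on odd ones kept the direction with a smaller size. The 1638 high bins lost on even positions had a median difference of -1.18 there and -0.77 on odd positions, where 84.1% were below 0, compared with 46.8% of all bins. On odd positions their median was 0.94 with SCP1 and 0.21 with pR-Ea. The 1553 low bins gained had -0.93 on even and -0.50 on odd positions, with 69.8% below 0. The 392 newly high bins had 1.01 on even and 0.56 on odd positions, with 79.8% above 0. Choosing on odd positions gave -0.71, -0.49 and 0.54 for the same groups on even positions. The medians given above for classes are therefore larger than those of positions that did not choose the bins.

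The pPGK libraries give a readout that chose none of these bins, in 83% of them (30555 bins with at least 50 pPGK input reads). Of all 30555, 1.65% were high and 12.6% low with pPGK, and the median was -0.12. The high bins lost with pR-Ea had a median of 0.56 with pPGK, and 203 of 1292 (15.7%) were high and 9 (0.70%) low. The 31 bins high with both had a median of 0.64, and 9 were high. The 229 newly high pR-Ea bins had 0.16, and 5 of them (2.18%) were high with pPGK, a share near the background. In these libraries the SCP1-high sites without a pR-Ea call stood above the average with pPGK. The sites high with pR-Ea alone stood above it by less, and 5 of the 229 (2.18%) were low. Their median pR-Ea input was 92 reads, against 135 for the high bins lost.

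On the low side the pPGK shares were above background in each class. Of 1387 bins low with both promoters, 1108 (79.9%) were low with pPGK, with a median of -1.84. Of 2475 bins low with SCP1 and not with pR-Ea, 960 (38.8%) were low, and of 1148 gained with pR-Ea, 363 (31.6%), against 12.6% of all bins. Without the gained bins whose SCP1 activity was itself at or below -1, 279 of 1031 (27.1%) were low with pPGK. The 445 gained bins that were also called lower had a median of -0.34, and 80 (18.0%) were low. With the PMA_I library 2.06% of all bins were high and 16.9% low. It gave medians of 0.35 for the high bins lost, -0.07 for the newly high, -1.77 for low with both and -0.74 for the low gained, against -0.28 for all bins. Its values share the pPGK input with the library above, so they are not a second independent readout of that input.

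**Figure D5:**
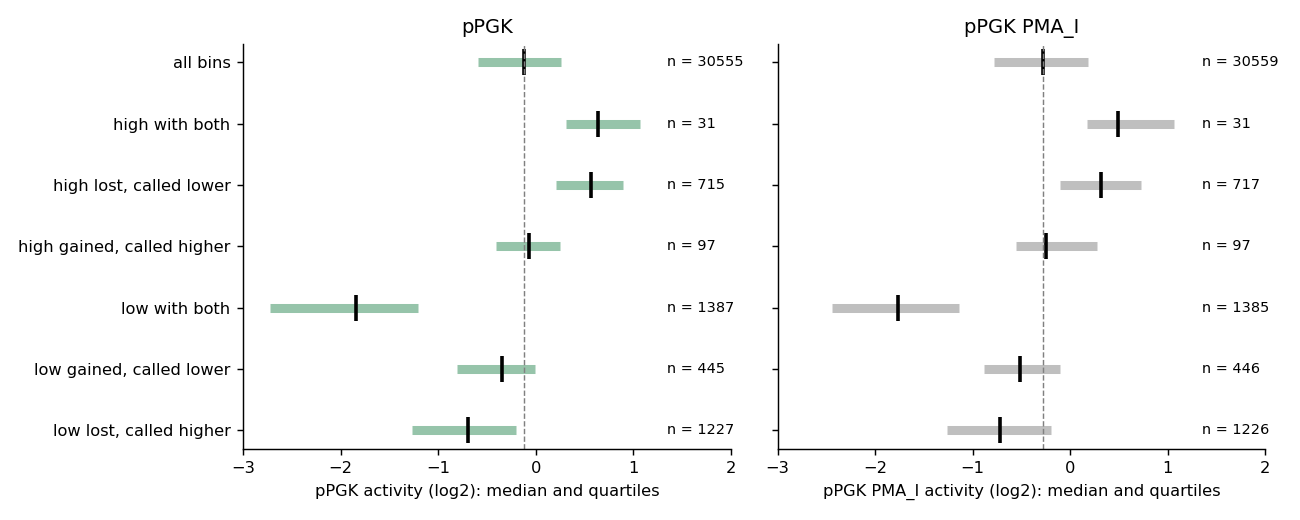
Median (black mark) and quartile range (bar) of activity with pPGK (left) and pPGK PMA_I (right) on a log2 x axis for all bins and 6 classes set by SCP1 and pR-Ea (y axis), with the number of bins and a dashed line at the median of all bins. The bins high with both and those lost and called lower lie right of the line, at 0.64 and 0.57 with pPGK, and the bins low with both lie farthest left, at -1.84.

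The classes differed in breadth and coverage. A bin with no adjacent bin of enough input was counted as isolated, as were 44.9% of all bins. The share was 41.7% for the high bins lost and 50.1% for the low bins gained, against 41.6% of all bins high with SCP1 and 46.8% of all low with pR-Ea. In stretches of 4 bins or more (1754 bins) 5.64% were high bins lost and 2.96% low bins gained, against 4.13% and 4.49% of the 16543 isolated bins. The same direction held for all bins high with SCP1 (5.76% against 4.25%) and all low with pR-Ea (6.33% against 8.55%). It is therefore not particular to the lost or gained bins. Of the high bins lost, 311 of 1641 (19.0%) lay next to another lost bin, and of the low bins gained 136 of 1483 (9.17%) lay next to another. The shares next to a bin of the same class were 19.4% for all bins high with SCP1 and 27.8% for all low with pR-Ea. Of the bins low with both, 435 of 1536 (28.3%) had such a neighbor.

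Depth moved with these counts. The share of bins called lower went from 8.16% with 50 to 100 input reads in the shallower file to 3.24% with at least 1000, and that of low bins gained from 5.41% to 1.88%. The share of SCP1-high bins that were lost was 95.5% in the first group and 98.8% in the last, where 79 of 80 were lost. The part of input depth in the differences in breadth was not tested. Across chromosomes 1 to 19 and X, the high bins lost made up 3.58% (chromosome 19) to 5.84% (chromosome 2) of bins, and the low bins gained 3.01% (chromosome 15) to 5.62% (chromosome 10). All bins high with SCP1 made up 3.66% and 5.98% on chromosomes 19 and 2.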

How the data were processed

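CapStarr-seq libraries from 7 samples of P5424 cells were used through 4 deposited files. The build is mm9 and the tools named are bedtools 2.28.0, SAMtools and Bowtie2, per the submitters' processing notes. The deposited files list reads extended to 315 bp with whole-number counts and a mapping quality score. Reporter counts were taken from column 7 and input counts from column 8, an assignment that no label states; column 8 was equal at all positions shared by both pPGK files. The authors' deposited score was at least 30 throughout the SCP1 and pR-Ea files. In the pPGK files, positions listed below 30 in either file were dropped, which left 16822639 input reads.

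A 5′ end position listed on both strands (267951 with SCP1, 194650 with pR-Ea) has the same counts on each line. It was counted once and placed at the 5′ end; other positions were placed at the fragment's midpoint. Counts were scaled to their column's total, with a pseudocount of 1. Errors came from a linearised ratio over positions, with at least 3 positions in each count. Python 3.11.15, numpy 2.4.6 and pandas 2.3.3 were used, and edgeR 4.0.16 for TMM factors. The functions were tested on simulated data.

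Bins were named by a rule: at least 200 input reads and 10 input positions in each library, adjacent bins of 1 class taken as 1 site, then the 8 most negative differences among high bins lost, 6 among low bins gained, the 6 largest increases, 6 bins high with both by the smaller activity and 3 low with both, plus the bin with most SCP1 input in each class. The members, classes and rules were chosen with earlier results of these data known. Scaling, filters, bin size and position, pseudocount, thresholds, placement and reporter reads alone were varied. Gene names, sequences and repeat content are not given because no mm9 genome or annotation was used here.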

Additional observations from a re-analysis of the deposited data

Results flagged for a closer look

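Activity against input lay on opposite sides with the 2 promoters in a few bins, a difference that was not tested. Over all bins 4.59% were high and 12.4% low with SCP1, and 0.997% were high and 8.2% low with pR-Ea. In 25 bins (0.0679% of all) the SCP1 call was high and the pR-Ea call low. They had a median difference of -2.70 and a median of 91 pR-Ea input reads. Of these, 18 had enough pPGK input and a median pPGK activity of 0.02. In 20 bins (0.0543% of all) the SCP1 call was low and the pR-Ea call high, with a median difference of 2.47 and 72.5 pR-Ea input reads. Of these, 10 had a pPGK value, with a median of -0.22.

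Reads outside the bins entered no comparison. They made up 43.6% of the pPGK reporter reads and 49.3% of those in PMA_I, against 36.2% of their input. With SCP1 the share was 31.9% of reporter and 34.8% of input reads, and with pR-Ea 39.0% of each.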

How the results depend on the processing

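As reported, 2547 bins were lower and 3074 higher with pR-Ea, 1641 high bins were lost and 1483 low bins gained. In that order the counts were 8989, 9318, 12117 and 15375 with at least 1 input read, and 800, 891, 545 and 438 with at least 200. They were 809, 1141, 461 and 307 with distinct positions in place of reads, a count that saturates, 667, 994, 322 and 545 at 3-fold, and 4848, 5861, 3694 and 3337 at 1.5-fold. Reporter reads alone gave 5514 lower and 5807 higher, of which 3433 were called the same way after division by input and 48 the opposite way. Higher bins numbered 1959 on even and 1859 on odd positions. Low bins gained were 2986 with pR-Ea stretched to the SD of SCP1 and 2528 in lists of equal size, both added after the data were seen. All other settings run kept each of the 4 counts within 1.5 times, including the position error times the square root of 2 (1982 and 2120), also added. That setting kept 4102 of 5621 calls, distinct positions 1193, and placing every position at its 5′ end 3236, with 2 called the opposite way. The difference at chromosome 12, 4152501 to 4153000, reversed to -0.19 at the plus strand midpoint. There its SCP1 reporter reads went from 12 to 140 (126 of them at 1 position) and its pR-Ea reporter reads from 199 to 146. The difference at chromosome 17, 39983001 to 39983500, reversed to -0.54 by distinct positions. Under that setting 8 others of the 31 differences at named bins also lost their call. The 31 include bins high or low with both promoters whose difference was not called as reported. The cause was not tested in the other cases. Median pPGK activity of the lost and gained bins was 0.61 and -0.83 with at least 200 pPGK input reads, and 0.69 and -0.53 without a mapping quality minimum. No paired analysis was possible because each group has 1 library.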
